A study of Homo sapiens with 6 samples.

Results

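The cathepsins are the best known peptidases of the lysosome, and 10 of them are described here in breast cancer cells with and without silencing of SPANXB1. The members were taken by gene symbol from the table of 16570 genes, and are CTSA, CTSB, CTSC, CTSD, CTSH, CTSK, CTSL, CTSS, CTSV and CTSZ. All 10 were in the table, and all 10 were among the 11439 genes tested. The cells were MDA-MB-231BR (BR), a variant of the human breast cancer line MDA-MB-231 that spreads to the brain. BR-shCON cells (3 samples) carried a control vector, called empty in a legend of the study, and BR-shSPANXB1 cells (3 samples) carried a short hairpin RNA (shRNA) against SPANXB1, a cancer-testis antigen. Both are stable lines made with lentivirus and selected with puromycin, and the sources used here name no single-cell cloning. The extraction protocol in the labels names the BR line and its parent line and no knockdown, so that the groups rest on the titles and cell types.

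Most cathepsins are cysteine peptidases of the papain fold (B, C, H, K, L, S, V and Z), whereas cathepsin D is an aspartic and cathepsin A a serine peptidase. They are made as inactive precursors, tagged with mannose 6-phosphate, carried to the lysosome and activated there at acid pH. Cystatins and some serpins inhibit the cysteine cathepsins, and cathepsin S trims the invariant chain CD74 in cells that present antigen on MHC class II. In tumors, secreted cathepsins can cut the extracellular matrix, and cathepsin S has been studied in the passage of breast cancer cells through the blood-brain barrier.

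The sequences below are the shRNA target, which defines the groups, and the RefSeq promoters (GRCh38.p14, from 250 bases before to 50 after the start site) of the cathepsin that fell most, CTSC, and of the 2 cathepsins, of 7 with a promoter in the RefSeq table, that held the motif CACGTG. This motif is the core of the site bound by TFEB and related activators of lysosomal genes. Capitals mark bases 14 to 20 of the target, which pair with bases 2 to 8 of an antisense strand of the same length, and CACGTG in the promoters.
shSPANXB1 target: gaggaggaggaatTCATAGAa
CTSA promoter, chr20:45891085-45891384, plus strand: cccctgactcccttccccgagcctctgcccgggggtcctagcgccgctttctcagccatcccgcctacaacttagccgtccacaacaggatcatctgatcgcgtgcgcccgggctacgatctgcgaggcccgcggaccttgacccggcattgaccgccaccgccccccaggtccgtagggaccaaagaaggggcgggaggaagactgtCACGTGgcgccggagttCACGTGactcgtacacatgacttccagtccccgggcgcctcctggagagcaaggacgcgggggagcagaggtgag
CTSD promoter, chr11:1763878-1764177, minus strand: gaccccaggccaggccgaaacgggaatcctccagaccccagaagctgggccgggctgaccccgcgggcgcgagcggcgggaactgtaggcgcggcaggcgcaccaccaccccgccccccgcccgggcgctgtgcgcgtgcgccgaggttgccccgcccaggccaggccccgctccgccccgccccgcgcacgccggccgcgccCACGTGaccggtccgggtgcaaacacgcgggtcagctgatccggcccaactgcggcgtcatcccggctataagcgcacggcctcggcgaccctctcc
CTSC promoter, chr11:88337687-88337986, minus strand: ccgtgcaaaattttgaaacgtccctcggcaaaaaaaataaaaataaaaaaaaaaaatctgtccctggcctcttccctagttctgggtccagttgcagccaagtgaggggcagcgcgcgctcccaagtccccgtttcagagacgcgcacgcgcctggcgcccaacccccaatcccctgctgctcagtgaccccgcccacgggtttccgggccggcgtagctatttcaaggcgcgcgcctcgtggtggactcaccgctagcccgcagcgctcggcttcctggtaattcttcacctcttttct

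The RefSeq table held promoters of 7 of the 10, all but CTSB, CTSK and CTSS. CACGTG, which reads the same on both strands, lay at -42 and -25 from the start site of CTSA and at -47 from that of CTSD, and was not in the other 5 windows (CTSC, CTSH, CTSL, CTSV and CTSZ). The copy at -25 of CTSA is part of the longer TCACGTGA. CACGTG occurred in 7.26% of all 35116 promoters and in 10.3% of those of tested genes, and TCACGTGA in 0.98% and 2.06%. The longest run of bases that an annotated transcript of a cathepsin shared with the shRNA target was 7 to 12 bases, with the longest in CTSL. The 7 bases in capitals occurred in an annotated 3' UTR of CTSV, and in none of the other 9 cathepsins, beside 11.6% of the 11406 tested genes with an annotated 3' UTR. Which strand of the hairpin was loaded was not measured.

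RNA was poly(A) selected, and the authors deposited an estimated count and an FPKM (fragments per kilobase of transcript, scaled to the mapped fragments of the sample) for each gene and sample. Samples held 16294462 to 16666167 estimated counts. SPANXB1 fell from 508 to 247 FPKM (log2 fold change -1.11, SE 0.05, adjusted p = 1.8e-14, edgeR with Benjamini-Hochberg adjustment). VIM, CD44 and AXL, markers of the mesenchymal type of line to which MDA-MB-231 belongs, stood at 202 to 2263 FPKM. Of these AXL rose (log2 fold change 0.22, adjusted p = 0.0001 in edgeR with Benjamini-Hochberg adjustment), and VIM and CD44 did not pass. SPARC, listed with them, stood at 0.345, and KRT18, a keratin also listed with them, at 267. Of 6 luminal markers 4 (ESR1, PGR, CDH1 and GATA3) were below 1. The other luminal markers were KRT19 at 92.6 FPKM and EPCAM at 8.03, and EPCAM fell (log2 fold change -0.35, adjusted p = 0.031 in edgeR with Benjamini-Hochberg adjustment). The test was edgeR's quasi-likelihood test on the counts, with Benjamini-Hochberg adjustment over all tested genes, and a gene passed at an adjusted p under 0.05. Of the genes tested, 1579 (13.8%) passed, 780 (6.82%) with higher and 799 (6.98%) with lower levels in BR-shSPANXB1 cells. With the replicate number as a block in the fit, 2935 genes passed.

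In BR-shSPANXB1 cells CTSS, CTSB and CTSZ rose and CTSC and CTSL fell, whereas CTSA, CTSD, CTSH, CTSK and CTSV did not pass the test. That is 3 of 10 higher, beside 6.82% of all tested genes, and 2 of 10 lower, beside 6.98%. CTSS rose by 0.44 and CTSC fell by 0.33 on the log2 scale, the largest changes in each direction among the members that passed. The median log2 fold change of the 10 was 0.13, beside 0.00023 over all tested genes. Of the 10 values 8 were positive, beside 5731 of all 11439 tested genes. The FPKM of the groups did not overlap for 6 of the 10, beside 28.6% of all tested genes. None of the 10 passed the criteria of the study, applied here to the edgeR values, and 0.621% of tested genes did. The Q values of the study itself were not used. The criteria ask for a change of more than 0.59 in either direction on the log2 scale. They also ask for more than 1 FPKM in the controls, beside the adjusted p. RNA of a whole culture was measured, so that fewer cells with a transcript and less of it per cell cannot be told apart.

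**Figure D1:**
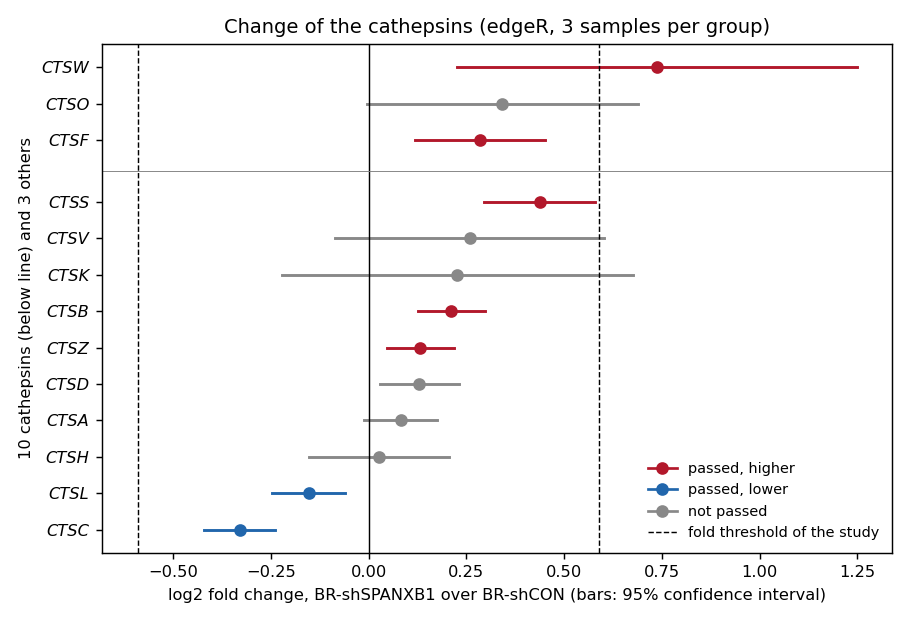
Log2 fold change of each cathepsin (points) with its 95% confidence interval (bars), from edgeR on 3 samples per group. The 10 cathepsins described lie below the grey line and the 3 other tested cathepsins above it, and dashed lines mark the fold threshold of 0.59. Of the 10, CTSS has the highest point, CTSC the lowest, and CTSV and CTSK the widest intervals. Above the line, CTSW has the widest interval of the figure.

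In BR-shCON cells the levels of the 10 cathepsins spread from 1.10 FPKM in CTSV to 113 in CTSD, by group mean. FPKM are scaled by transcript length, so that levels of different genes can be set side by side. CTSD stood above all others, and CTSC (81.8), CTSB (80.1) and CTSZ (77.7) followed with ranges that overlapped from each to the next. CTSA (71.3) and CTSL (70.8) came after CTSZ and overlapped each other. CTSH (9.38) and CTSS (5.87) were each apart from their neighbours in the order, and CTSK (1.19) and CTSV overlapped at the lower end. The 6 most abundant, CTSA, CTSB, CTSC, CTSD, CTSL and CTSZ, made up 96.0% to 96.7% of the summed FPKM of the 10 in every sample.

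**Figure D2:**
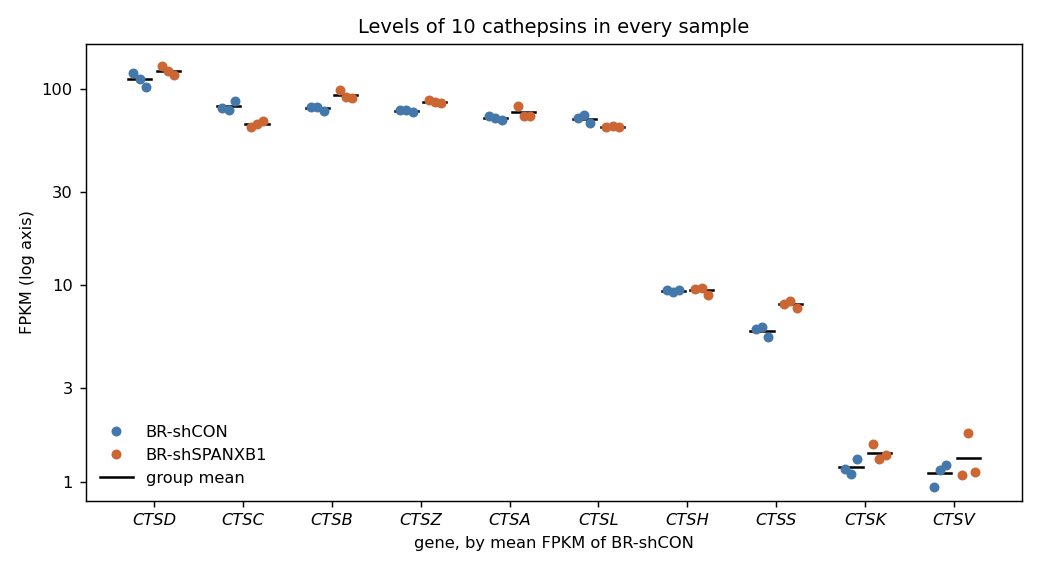
FPKM of the 10 cathepsins (log axis) in the 3 BR-shCON and 3 BR-shSPANXB1 samples, with points for samples in replicate order and black lines for group means. Genes are ordered by the mean of BR-shCON, and 6 genes lie between 63.99 and 130.8 FPKM while CTSK and CTSV lie between 0.94 and 1.77.

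CTSS (gene number 1520), the cysteine peptidase that processes the invariant chain and stays active near neutral pH, was 5.99, 6.13 and 5.48 FPKM in BR-shCON replicates 1 to 3 and 8.01, 8.37 and 7.67 in BR-shSPANXB1 replicates 1 to 3. All 3 BR-shSPANXB1 samples lay above all 3 BR-shCON samples. The group means were 5.87 ± 0.342 and 8.02 ± 0.35 FPKM (SD, n = 3), which is 36.6% higher. The log2 fold change on the count scale was 0.44 (SE 0.07, 95% confidence interval 0.30 to 0.58, adjusted p = 5.1e-05 in edgeR with Benjamini-Hochberg adjustment). The interval lay below the 0.59 that the study asks for. The value rests on 331 to 369 estimated counts in a BR-shCON and 460 to 508 in a BR-shSPANXB1 sample. It passed in all 16 alternative ways of processing, with log2 fold changes of 0.39 to 0.47.

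CTSS is best known from macrophages and other leukocytes, so their markers were read beside it. Of 11 leukocyte markers 7 were in the table. CD68, which many cultured lines express, stood at 72.0 FPKM and fell (log2 fold change -0.21, adjusted p = 0.0013 in edgeR with Benjamini-Hochberg adjustment), in the direction opposite to CTSS. The other 6 (PTPRC, CD14, CSF1R, ITGAM, ITGAX and LYZ) each had a mean below 1 FPKM, and PTPRC, the pan-leukocyte antigen CD45, was at 0.0233. No marker was at 0 in all samples, and PTPRC and ITGAM were each at 0 in 1 sample. These 6 were too low to be tested, and each had a higher mean in BR-shSPANXB1 cells, the direction of CTSS, as in CD14 (0.477 and 0.793 FPKM) and LYZ (0.393 and 0.567). Their summed FPKM was 0.79 to 1.38 in the BR-shCON samples and 1.35 to 1.91 in BR-shSPANXB1 samples, ranges that overlapped and lay below that of CTSS alone, and their part in the change of CTSS was not tested.

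CTSC (gene number 1075), a dipeptidyl peptidase that activates granule serine peptidases in leukocytes, was 80.17, 78.66 and 86.58 FPKM in the BR-shCON samples and 63.99, 66.47 and 68.49 in BR-shSPANXB1 samples. Every BR-shSPANXB1 sample lay below every BR-shCON sample. The means were 81.8 ± 4.21 and 66.3 ± 2.25 FPKM (SD, n = 3). CTSC was the cathepsin with the largest fall, with a log2 fold change of -0.33 (SE 0.04, 95% confidence interval -0.42 to -0.24, adjusted p = 4.8e-06 in edgeR with Benjamini-Hochberg adjustment), and it passed in all 16 alternatives with values of -0.36 to -0.29.

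CTSB (gene number 1508), an endopeptidase that also trims dipeptides from the carboxyl end of proteins, was 81.61, 81.31 and 77.23 FPKM in the BR-shCON samples and 99.56, 91.54 and 89.74 in BR-shSPANXB1 samples. The groups did not overlap, and replicate 1 of BR-shSPANXB1 stood above its 2 fellows. The log2 fold change was 0.21 (SE 0.04, 95% confidence interval 0.13 to 0.30, adjusted p = 0.00072 in edgeR with Benjamini-Hochberg adjustment). It passed in all 16 alternatives, with values of 0.17 to 0.24.

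CTSZ (gene number 1522), also called cathepsin X, removes single amino acids from the carboxyl end. Its level was 78.19, 78.18 and 76.62 FPKM in the BR-shCON samples and 87.68, 86.46 and 84.81 in BR-shSPANXB1 samples, and the groups did not overlap. The rise of CTSZ was small, at a log2 fold change of 0.13 (SE 0.04, 95% confidence interval 0.05 to 0.22, adjusted p = 0.033 in edgeR with Benjamini-Hochberg adjustment). The call of CTSZ was lost with DESeq2 (adjusted p = 0.081). In edgeR the adjusted p was 0.057, 0.087 and 0.07 on leaving out BR-shCON replicate 1, 2 or 3, and 0.12 and 0.092 on leaving out BR-shSPANXB1 replicate 1 or 2.

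CTSL (gene number 1514) and CTSV (1515) are close relatives and endopeptidases, the former found in most tissues and the latter mainly in thymus, testis and cornea. CTSL was 71.27, 74.14 and 67.06 FPKM in the BR-shCON samples and 64.36, 65.02 and 64.29 in BR-shSPANXB1 samples. All BR-shSPANXB1 samples of CTSL lay below the BR-shCON samples, and they lay closer together (SD 0.403 against 3.56 FPKM, n = 3). CTSL fell by 0.15 on the log2 scale (SE 0.05, adjusted p = 0.023 in edgeR with Benjamini-Hochberg adjustment). This call for CTSL held in 6 of 16 alternatives. The adjusted p of CTSL was 0.059 with DESeq2 and 0.061 to 0.099 in the 4 limma fits, and without single samples it was 0.071 (BR-shCON replicate 1), 0.11 (BR-shCON replicate 2), 0.074, 0.053 and 0.057 (BR-shSPANXB1 replicates 1, 2 and 3).

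CTSV stood near the lower limit of the tested range, at 0.94, 1.15 and 1.22 FPKM in the BR-shCON samples and 1.08, 1.77 and 1.12 in BR-shSPANXB1 samples. Replicate 2 of BR-shSPANXB1 stood above all others, and the remaining 5 samples overlapped. The log2 fold change of CTSV was 0.26 (SE 0.17, 95% confidence interval -0.09 to 0.60, adjusted p = 0.35 in edgeR with Benjamini-Hochberg adjustment). Without BR-shSPANXB1 replicate 2 it was -0.01.

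CTSD (gene number 1509), the main aspartic peptidase of the lysosome, was 121.4, 113.38 and 102.75 FPKM in the BR-shCON samples and 130.8, 123.83 and 118.83 in BR-shSPANXB1 samples. The ranges overlapped, since BR-shCON replicate 1 stood above BR-shSPANXB1 replicate 3. In both groups replicate 1 was the highest and replicate 3 the lowest sample. The log2 fold change of CTSD was 0.13 (SE 0.05, 95% confidence interval 0.03 to 0.23), with an adjusted p of 0.081 in edgeR with Benjamini-Hochberg adjustment. With the replicate number as a block CTSD passed, at the same log2 fold change of 0.13 and an adjusted p of 0.00016, and it also passed without BR-shCON replicate 1 (0.19, adjusted p = 0.0081) and with no expression filter (adjusted p = 0.019). Of the 31-base stretches of the longest CTSD transcript 60.9% also occur in AC068580.4, a protein-coding gene annotated on the same strand. The estimated counts of CTSD were whole numbers in every sample, and whether reads were shared between both was not tested.

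CTSA (gene number 5476), a carboxypeptidase, also holds the sialidase NEU1 and beta-galactosidase in a stable complex. It was 72.97, 71.51 and 69.5 FPKM in the BR-shCON samples and 82.56, 73 and 73.43 in BR-shSPANXB1 samples. The groups did not overlap, but 2 of the BR-shSPANXB1 samples lay just above the highest BR-shCON sample, and only replicate 1 stood well above the rest. CTSA did not pass, with a log2 fold change of 0.08 (SE 0.05, 95% confidence interval -0.01 to 0.18, adjusted p = 0.26 in edgeR with Benjamini-Hochberg adjustment). Its exons share 1038 bases with NEURL2 and 200 bases with PLTP, both on the other strand. Reads of both strands cannot be told apart here, since no step of the stated protocol marks strand. The estimated counts of CTSA were not whole in any sample.

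CTSH (gene number 1512), an aminopeptidase, was 9.43, 9.22 and 9.5 FPKM in the BR-shCON samples and 9.58, 9.75 and 8.98 in BR-shSPANXB1 samples. The BR-shCON values lay within the range of the BR-shSPANXB1 values. The log2 fold change of CTSH was 0.03 (SE 0.09, 95% confidence interval -0.15 to 0.21, adjusted p = 0.88 in edgeR with Benjamini-Hochberg adjustment), and its sign turned without BR-shSPANXB1 replicate 2 (-0.01) and in limma on quantile normalized values (-0.02).

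CTSK (gene number 1513) is the collagenase of bone-resorbing osteoclasts. In these cells it was at 1.16, 1.09 and 1.31 FPKM in the BR-shCON samples and 1.55, 1.3 and 1.37 in BR-shSPANXB1 samples, which overlapped. With 24 to 34 estimated counts a sample, the log2 fold change of 0.23 had a 95% confidence interval of -0.22 to 0.68 (SE 0.22, adjusted p = 0.55 in edgeR with Benjamini-Hochberg adjustment), an interval that includes both 0 and a change of the size seen in CTSS. Of 3 osteoclast markers in the table, ACP5 (0.305 FPKM) and CALCR (0.195) were below CTSK. The third, MMP9, was above CTSK at 4.2 FPKM in BR-shCON cells and fell to 1.94 (log2 fold change -1.13, adjusted p = 3.5e-07 in edgeR with Benjamini-Hochberg adjustment). CTSK is the nearest tested gene on 1 side of CTSS, 30250 bases away on chromosome 1 (GRCh38, GENCODE v29), and both lie on the minus strand, CTSS at chr1:150730196-150765957 and CTSK at chr1:150796208-150808323.

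The other members lie on chromosomes 8 (CTSB, 11842524 to 11869448), 9 (CTSL, 87725519 to 87731393, and CTSV, 97029679 to 97039643), 11 (CTSC, 88293592 to 88337787, and CTSD, 1752752 to 1764573), 15 (CTSH, 78921058 to 78949574) and 20 (CTSA, 45890144 to 45898820, and CTSZ, 58995185 to 59007247). Apart from CTSD, between 0 and 7.36% of the 31-base stretches of a member's longest transcript occurred in a transcript of any other gene. CTSL shared 52 of its 2147 such stretches with the pseudogene CTSL3P. Transcripts were compared in their own direction only, so that overlaps on the other strand, as in CTSA, were not counted.

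**Figure D3:**
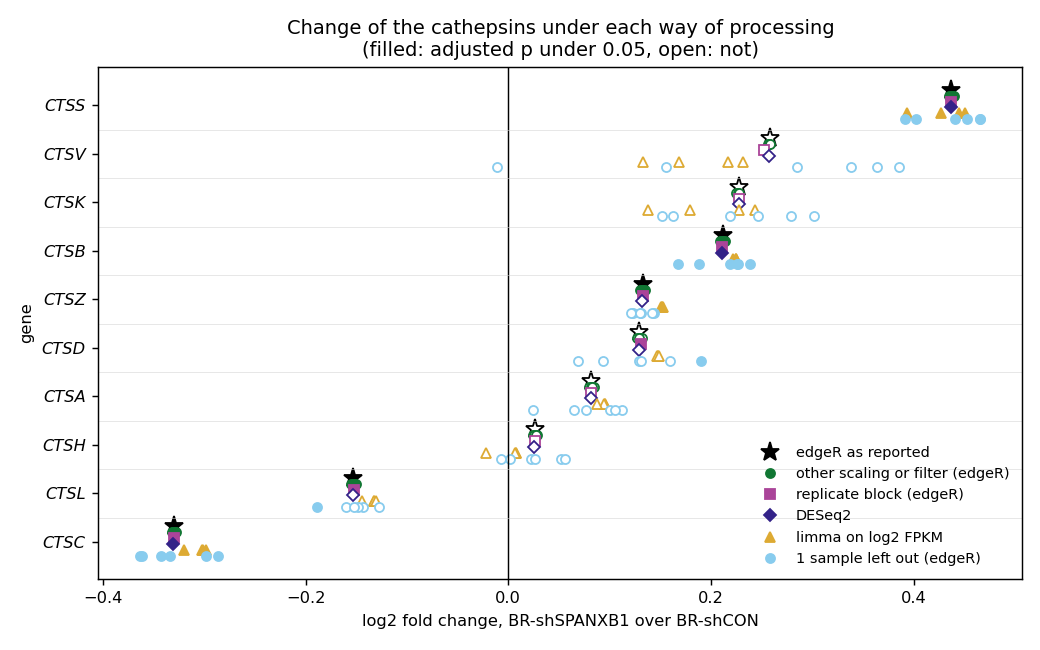
Log2 fold change of each cathepsin as reported (star) and in up to 16 alternatives, with filled symbols where the adjusted p was under 0.05. CTSS, CTSB and CTSC are filled throughout, CTSZ and CTSL are filled in 10 and 6 alternatives, and single open points of CTSV and CTSH lie on the other side of 0.

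The summed FPKM of the 10 cathepsins was 523, 515 and 497 in the BR-shCON samples and 549, 528 and 519 in BR-shSPANXB1 samples, and the groups overlapped. Within this sum the share of CTSC was 15.3%, 15.3% and 17.4% in the BR-shCON samples and 11.7%, 12.6% and 13.2% in BR-shSPANXB1 samples, and the share of CTSS was 1.10% to 1.19% in the former and 1.46% to 1.59% in the latter. CTSB and CTSC, a pair chosen after their values were seen, were nearly equal in BR-shCON cells, with a ratio of CTSB to CTSC of 1.02, 1.03 and 0.892. In BR-shSPANXB1 cells the ratio was 1.56, 1.38 and 1.31. No sample of one group reached the range of the other for the shares of CTSC and CTSS or for this ratio, which were not tested beyond the genes themselves.

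**Figure D4:**
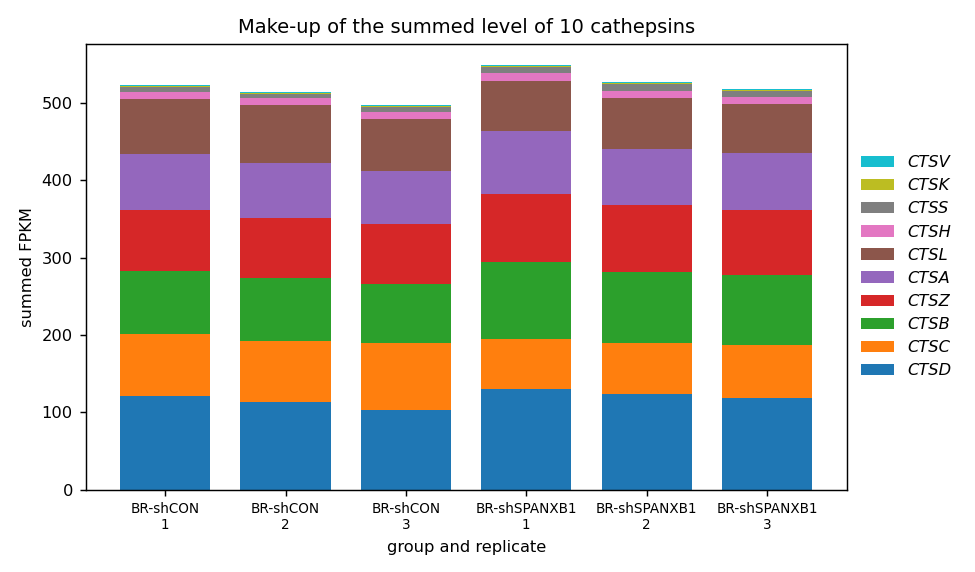
Summed FPKM of the 10 cathepsins in each sample, stacked by gene with the most abundant in BR-shCON at the bottom. The totals lie between 497 and 549, and the CTSC segment is narrower in the 3 BR-shSPANXB1 samples.

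Of 5 cathepsins that are not among the 10, CTSF, CTSO and CTSW were tested, CTSE stood at 0.0417 FPKM and CTSG was not analysed here. CTSF, a widely expressed cysteine cathepsin, was 9.22, 8.01 and 8.18 FPKM in the BR-shCON samples and 10.33, 9.94 and 10.66 in BR-shSPANXB1 samples, and rose without overlap (log2 fold change 0.29, SE 0.08, adjusted p = 0.017 in edgeR with Benjamini-Hochberg adjustment). The call of CTSF was lost with DESeq2 (adjusted p = 0.077) and without BR-shCON replicate 2 (0.081) or BR-shSPANXB1 replicate 3 (0.07). CTSW, a cathepsin of cytotoxic lymphocytes, was 0.91, 1.11 and 1.04 FPKM in the BR-shCON samples and 1.87, 1.78 and 1.55 in BR-shSPANXB1 samples, which rest on 15 to 30 counts a sample. CTSW passed with a log2 fold change of 0.74 (SE 0.25, adjusted p = 0.047 in edgeR with Benjamini-Hochberg adjustment), but not with DESeq2 (adjusted p = 0.22), with no expression filter (0.064) or when any single sample was left out (0.13, 0.079 and 0.091 on leaving out BR-shCON replicates 1 to 3, and 0.14, 0.12 and 0.057 on leaving out BR-shSPANXB1 replicates 1 to 3). As reported, CTSW met the criteria of the study, with a mean of 1.02 FPKM in BR-shCON cells. CTSO had a log2 fold change of 0.34 (SE 0.17, adjusted p = 0.19 in edgeR with Benjamini-Hochberg adjustment).

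With the 3 other cathepsins counted in, the 9 lists of genes that carry, inhibit, regulate or work beside cathepsins held 114 tested genes, of which 21 rose and 7 fell, beside 6.82% and 6.98% of all tested genes, the background for each list that follows. Among inhibitors 3 of 8 tested genes rose and none fell, with a median log2 fold change of 0.18. CST7, cystatin F, an inhibitor of lysosomal cysteine cathepsins known from leukocytes, was 5.4, 5.75 and 5.21 FPKM in the BR-shCON samples and 7.31, 7.63 and 8.97 in BR-shSPANXB1 samples (log2 fold change 0.52, SE 0.15, adjusted p = 0.021 in edgeR with Benjamini-Hochberg adjustment). The groups of CST7 did not overlap, and its adjusted p was 0.11 with DESeq2, 0.06 on leaving out BR-shCON replicate 3 and 0.11 on leaving out BR-shSPANXB1 replicate 3. The serpins SERPINB1 (log2 fold change 0.20) and SERPINB6 (0.16), which inhibit granule serine peptidases such as cathepsin G, rose with adjusted p of 0.022 and 0.035 in edgeR with Benjamini-Hochberg adjustment. Both lost their call with DESeq2 (adjusted p of 0.069 and 0.096), in limma on quantile normalized values (0.06 and 0.058) and without BR-shCON replicate 1 (0.068 and 0.053), BR-shCON replicate 2 (0.087 and 0.12), BR-shSPANXB1 replicate 1 (0.071 and 0.12) or BR-shSPANXB1 replicate 2 (0.13 and 0.15). The abundant cystatins CSTB (278 FPKM in BR-shCON, log2 fold change -0.07) and CST3 (144 FPKM, 0.10) did not pass, with adjusted p of 0.35 and 0.27. With the replicate number as a block CST3 passed, at 0.10 and an adjusted p of 0.039.

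Among 7 tested genes of the MHC class II pathway 2 rose, none fell, and the median log2 fold change was 0.13. CD74, the invariant chain and a substrate of cathepsin S, was 9.48, 10.2 and 9.11 FPKM in the BR-shCON samples and 15.66, 14.39 and 13.93 in BR-shSPANXB1 samples, without overlap (log2 fold change 0.60, SE 0.09, adjusted p = 1.7e-05 in edgeR with Benjamini-Hochberg adjustment). IFI30, a thiol reductase that opens disulfide bonds of antigens in the lysosome, rose from 32.9 to 40.4 FPKM by group mean (log2 fold change 0.27, adjusted p = 0.0078). Both passed in all 16 alternatives. HLA-DRA (0.587 FPKM over the 6 samples) and HLA-DRB1 (0.563), chains of a class II molecule, were below the level tested. Of 12 tested regulators of the interferon response, which is known to induce CTSS and CD74, 3 rose and 1 fell, with a median of 0.02. IRF1, an interferon-induced transcription factor, rose from 19.2 to 25.7 FPKM (log2 fold change 0.44, adjusted p = 1.3e-06), the kinase JAK1 by 0.16 and STAT3 by 0.17 on the log2 scale (adjusted p = 0.0031 and 0.0033 in edgeR with Benjamini-Hochberg adjustment). SOCS3, a feedback inhibitor of cytokine signals, fell by 0.17 (adjusted p = 0.032) and held this call in 7 of 16 alternatives. The adjusted p of SOCS3 was 0.088 with DESeq2, 0.071 in limma at each pseudocount, 0.051 and 0.18 after leaving out BR-shCON replicate 1 or 2, and 0.078, 0.1 and 0.061 after leaving out BR-shSPANXB1 replicate 1, 2 or 3.

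Glycosidases and other acid hydrolases had 5 rises and 1 fall among 26 tested genes, and their median log2 fold change was 0.02. NEU1, the sialidase that cathepsin A protects, was 12.26, 12.29 and 12.47 FPKM in the BR-shCON samples and 16.57, 16.02 and 15.78 in BR-shSPANXB1 samples (log2 fold change 0.37, SE 0.05, adjusted p = 1.6e-05 in edgeR with Benjamini-Hochberg adjustment). The groups of NEU1 lay far apart relative to their spread, while CTSA itself did not pass. The mannosidase MAN2B1 rose by 0.25, the fucosidase FUCA1 rose by 0.27 and the sulfatase GALNS fell by 0.32 on the log2 scale (adjusted p = 0.00027, 0.0083 and 0.003 in edgeR with Benjamini-Hochberg adjustment), and of these FUCA1 lost its call without BR-shSPANXB1 replicate 1 (adjusted p = 0.057). The list of other peptidases, most but not all of them lysosomal, had 1 rise and 1 fall among 8 tested genes. TPP1, a tripeptidyl peptidase, rose (log2 fold change 0.22, adjusted p = 0.0013 in edgeR with Benjamini-Hochberg adjustment). SCPEP1, a serine carboxypeptidase, fell (-0.26, adjusted p = 0.0029 in the same test). LGMN, the asparaginyl peptidase that helps to activate several cathepsins, did not pass (0.05, adjusted p = 0.43).

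In the list of mannose 6-phosphate tagging and sorting 2 of 16 tested genes rose and 3 fell, and the median log2 fold change was -0.01. The endocytic receptor LRP1 (0.28, adjusted p = 0.00014) and the sorting receptor SORT1 (0.21, adjusted p = 0.00065) rose in edgeR with Benjamini-Hochberg adjustment. GNPTAB, a subunit of the enzyme that adds the mannose 6-phosphate tag, fell by 0.15 on the log2 scale, with an adjusted p of 0.039, and held this call in 7 of 16 alternatives. The call of GNPTAB was lost with DESeq2 (adjusted p = 0.093), in the 4 limma fits (0.076 to 0.11) and on leaving out BR-shCON replicate 2 (0.077), BR-shCON replicate 3 (0.13), BR-shSPANXB1 replicate 1 (0.21) or BR-shSPANXB1 replicate 2 (0.077). The receptors of the tag, M6PR (0.06, adjusted p = 0.42) and IGF2R (-0.02, adjusted p = 0.81), did not pass.

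The proton pump that acidifies lysosomes, the vacuolar ATPase, had 1 rise among 16 tested subunits, ATP6V0A1 (log2 fold change 0.17, adjusted p = 0.008 in edgeR with Benjamini-Hochberg adjustment, 0.071 without BR-shCON replicate 1, and 0.057 in limma on quantile normalized values). Of 12 lysosomal membrane and cholesterol transport genes LAPTM4A and NPC2 rose, each by 0.18, and LAPTM4B fell by 0.24 on the log2 scale (adjusted p = 0.0054, 0.0097 and 0.00023 in edgeR with Benjamini-Hochberg adjustment). LAPTM4A lost its call without BR-shSPANXB1 replicate 3 (adjusted p = 0.052), and NPC2 without BR-shCON replicate 2 (0.082) or BR-shSPANXB1 replicate 2 (0.06). None of the 6 tested regulators of lysosomal genes passed, TFE3 (0.04, adjusted p = 0.68) and MITF (-0.11, adjusted p = 0.23) among them, and TFEB stood at 0.188 FPKM.

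**Figure D5:**
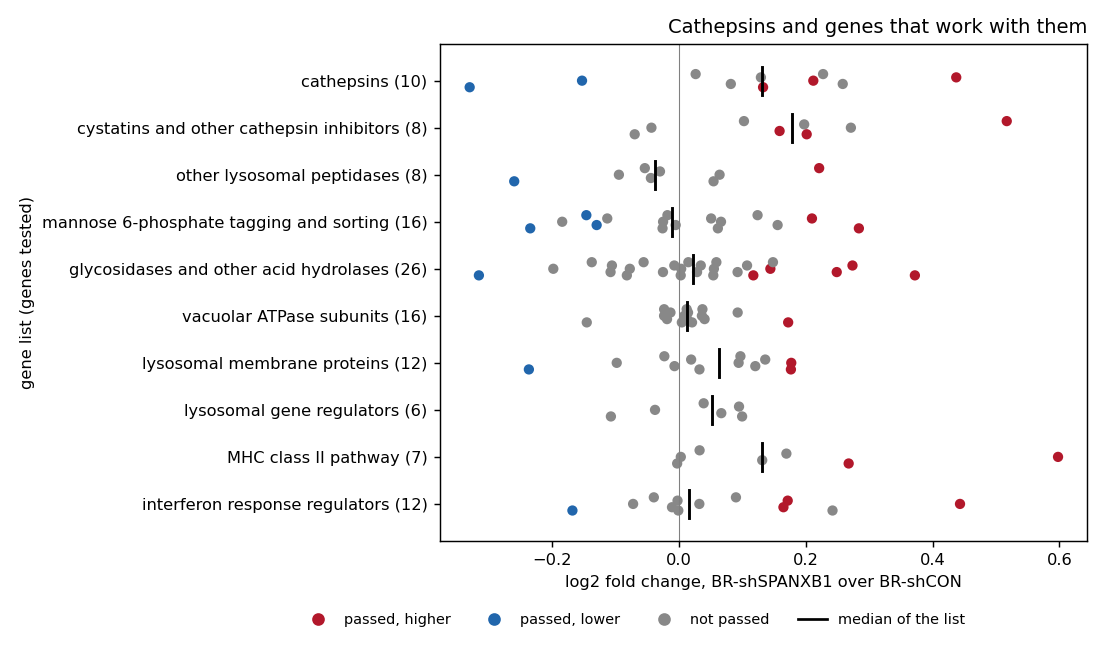
Log2 fold change of every tested gene (points) of the cathepsins and of 9 lists of genes that work with them, with black bars for list medians and colors for genes that passed the test. The medians lie between -0.04 and 0.18, and the points furthest to the right are CD74 and CST7.

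The genes whose profile over the 6 samples was closest to that of CTSS, by the root mean square difference of log2(FPKM + 0.1) centred on each gene, were TCEAL3 (0.0257), ABCA7 (0.0293), BTN2A2 (0.0327), ITGB4 (0.0376) and MVP (0.0381). Each of the 5 rose, with log2 fold changes of 0.39 to 0.51, which follows from their choice by likeness to CTSS. Of the other cathepsins CTSB came closest, at rank 376 with a difference of 0.125, followed by CTSF at rank 390. CTSC stood at rank 11045 with 0.388. These ranks describe 6 samples of 2 groups and are not a test.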

How the data were processed

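RNA-seq of 3 BR-shCON and 3 BR-shSPANXB1 samples was read from 1 table. It held raw estimated counts and FPKM values as deposited, the latter scaled for length and depth by the authors. According to the submitters' processing notes, HISAT2 2.0.4, Bowtie2 2.2.5 and the build GRCh38.p12 were used, in roles not stated, and the counting program is not given. Counts were rounded (14.5% were not whole) and tested with edgeR 4.0.16 in R 4.3.3 (TMM factors, quasi-likelihood test with robust estimation, Benjamini-Hochberg adjustment), after a trial on simulated data, where the mean FPKM was at least 1. Totals differed by little, so precision rests on 3 samples per group and, for CTSK and CTSW, on counting error. The study as a whole describes its replicates as separate batches of cells.

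The members and gene lists were chosen with earlier results of these data known. Named were all members, SPANXB1, up to 4 passing genes per list by adjusted p, and the 5 genes closest to CTSS. A gene that this rule would name is not reported here. Others (CSTB, CST3, HLA-DRA, HLA-DRB1, LGMN, M6PR, IGF2R, TFE3, MITF and TFEB) were named for their role after their values were seen. Across genes, same-numbered samples deviated together from their group means (correlations 0.113, 0.150 and 0.159 on log2 CPM, and 0.0964, 0.135 and 0.104 on log2 FPKM). On the first scale all exceed 0.1, which was taken as pairing, although neither labels nor paper say what a number shares. Reported values come from the fit without this pairing unless the block or another alternative is named. Alternatives were DESeq2 1.42.0, limma 3.58.1 on log2(FPKM + 0.1), with pseudocounts of 1 and 0.01 or quantile normalization, median ratio scaling, other filters, the replicate block and leaving out each sample. The 6 TPM columns and 6 columns of group means in the table were not used. Figures: matplotlib 3.10.9, Python 3.11.15.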

Additional observations from a re-analysis of the deposited data

How the results depend on the processing

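CTSS, CTSB and CTSC kept their direction and passed in all 16 alternatives. Over the 10 cathepsins 158 values were recomputed, of which 136 kept direction and call, 16 lost a call and 3 gained one (CTSD). In 3 values the sign turned without a call on either side, in CTSH (-0.0218 in limma on quantile normalized values, and -0.0069 to 0.0565 when single samples were left out) and in CTSV (-0.0111 to 0.386 when single samples were left out). With DESeq2 3 cathepsins passed, 1 of them lower. Each of the 4 limma fits (pseudocounts 0.01, 0.1 and 1, and quantile normalization) had 1 lower cathepsin. Leaving out single samples left 3 to 4 cathepsins past the test (3 without BR-shCON replicate 2, BR-shSPANXB1 replicate 1 or BR-shSPANXB1 replicate 2), 1 to 2 of them lower. The count over all genes, 1579, was 1020 with DESeq2, 867, 866 and 873 in limma with pseudocounts of 0.01, 0.1 and 1, and 894 with quantile normalization. It was 1041 to 1466 when single samples were left out, lowest without BR-shSPANXB1 replicate 2, and 2935 with the replicate block. The lists of genes that work with cathepsins, with the 3 other cathepsins, had 28 calls, 41 with the replicate block, 17 with DESeq2 and 18 to 23 when single samples were left out. With the replicate block 6 of 10 cathepsins passed, 4 higher and 2 lower, beside 1452 higher and 1483 lower of all 11439 tested genes. The block changed the call of CTSD and CST3 and of no other named gene that was tested. Left out of this comparison were the cell type markers and the 5 genes closest to CTSS. Over the named genes of the lists 339 of 397 values kept direction and call, and 58 lost the call in the same direction. None of the 10 cathepsins passed the criteria of the study in any alternative. CTSK and CTSV were not tested at a mean FPKM of at least 5. Depth limits CTSK and CTSW, with 15 to 34 counts a sample, while the value of CTSV turns on BR-shSPANXB1 replicate 2. Why values moved was not tested.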
